A study of Mus musculus with 12 samples.

Results

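Bile acid transport and signalling through the bile acid receptor FXR was followed with 9 genes in whole mouse jejunum after inducible knockout of Fgfr1op. The genes were Slc10a2, Fabp6, Slc51a, Slc51b, Nr1h4, Nr0b2, Fgf15, Abcc2 and Abcc3. A gene was taken from the probe sets whose platform annotation gives exactly 1 symbol, and of several such probe sets the brightest on average was kept. All 9 genes were found among the 19938 genes measured in this way.

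Bile acids are made in the liver, released into the gut with food and reclaimed in the distal small intestine. There the apical sodium-dependent transporter ASBT (Slc10a2) takes them into the enterocyte, the ileal bile acid-binding protein (Fabp6) carries them inside the cell, and the heterodimer OSTα-OSTβ (Slc51a and Slc51b) exports them to the blood. Inside the cell they activate the nuclear receptor FXR (Nr1h4), which induces Slc51a, Slc51b, Fabp6, the repressor SHP (Nr0b2) and the hormone FGF15, which acts on the liver to lower bile acid synthesis. In mouse intestine FXR signalling lowers Slc10a2, and the transcription factor GATA4 is known to keep Slc10a2 and other ileal genes low in the jejunum. The pumps MRP2 (Abcc2, apical) and MRP3 (Abcc3, basolateral) export conjugated organic anions, bile acids among them.

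The groups were mice with Fgfr1op knocked out (KO) and wild-type (WT) mice, each taken 6, 9 or 12 days post-tamoxifen, with 2 mice and 2 arrays in each of the 6 groups. Fgfr1op, whose current symbol is Cep43, encodes a protein of the centrosome. The protocol describes intraperitoneal tamoxifen in corn oil at 75 mg per kg on 5 days, and it does not say from which injection the days were counted. The Cre driver, the deleted part of the gene, the strain, age and sex of the mice, and the injection or Cre status of the WT mice are not stated in the labels. Values are log2 signals on a 1-colour array, so 1 unit is a doubling of signal, and no level of one gene can be set against that of another. In whole tissue, fewer cells of a type and less RNA per cell cannot be told apart.

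Several facts of the arrays bear on the values below. The signal of the targeted gene ranged from 6.56 to 6.97 in KO arrays and from 6.83 to 7.05 in WT arrays. Both KO arrays lay below both WT arrays at days 6 and 9, but 1 KO array of day 12, at 6.97, lay between the WT arrays of that day, so the library labelled KO replicate 1 of day 12 is not separated from WT by this gene. Xist, the transcript of the inactive X chromosome, was at 9.78 to 10.08 in 5 arrays and at 4.03 to 4.37 in the other 7, and the mean of 3 Y-linked genes (Uty, Eif2s3y and Kdm5d) ran the opposite way, at 4.10 to 4.43 and 7.52 to 8.38. The 5 arrays with high Xist were the 4 arrays of day 12 and WT replicate 2 of day 6. KO and WT therefore matched in this pattern at days 9 and 12 and not at day 6, while any step from day 9 to day 12 also went from one pattern to the other and the 2 cannot be told apart. In KO mice the same limit holds between days 6 and 12, and for any test over the 3 days. A list of 15 smooth muscle genes averaged -0.93 and -1.05 in KO arrays of day 6, against 0.55 and -0.08 in WT arrays of day 6, as log2 values relative to the mean of the 6 WT arrays. A list of 18 genes of absorptive enterocytes averaged between -1.76 and -1.23 in KO arrays of days 9 and 12 on the same scale, against -0.17 to 0.09 over the WT arrays, and 13 of its genes fell at each of those days. Over all genes 17.1% fell at day 9 and 13.7% at day 12. A list of 14 pan-epithelial genes averaged 0.32 and 0.35 in KO arrays of day 9, against 0.06 and 0.12 in WT arrays of day 9. A fit with the smooth muscle or pan-epithelial mean can therefore also take up part of a difference between KO and WT.

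Slc10a2 was higher in KO than in WT jejunum at every day. At day 6 its signal was 9.29 and 9.10 in KO mice, against 7.51 and 8.08 in WT mice. At day 9 it was 10.57 and 10.45 in KO mice, against 6.82 and 6.62 in WT mice. At day 12 it was 9.22 and 9.33 in KO mice, against 6.08 and 5.79 in WT mice. The groups did not overlap at any day, and the lowest KO array of all lay above the highest WT array of all.

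The difference, KO minus WT, was 1.40 ± 0.17 on the log2 scale at day 6 (SE, 2.63-fold, adjusted p = 0.00334, limma). It was 3.79 ± 0.17 at day 9 (13.8-fold, adjusted p = 7.36e-08, limma) and 3.34 ± 0.17 at day 12 (10.1-fold, adjusted p = 1.05e-07, limma). Among the 19938 genes this placed Slc10a2 12th from the largest rise at day 6, 6th at day 9 and 22nd at day 12. Here and below the adjusted p is the Benjamini-Hochberg value over all 19938 genes, a gene was called where it was under 0.05, and "rose" and "fell" are used of called differences. The day 6 call was lost without KO replicate 1 of that day (difference 1.31, adjusted p = 0.0572, limma) and when the smooth muscle mean was added to the fit (1.11, adjusted p = 0.312, limma). Without WT replicate 2 of day 6, the array with high Xist, the difference was 1.68 (adjusted p = 0.00146, limma).

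The promoter of Slc10a2 is shown because this gene differed most among the 9 and because the factors known to act on it bind such motifs. RefSeq places it at chr8:5105238-5105537 on the minus strand (GRCm38.p6), from 250 bases before to 50 bases after the annotated start. Capitals mark a GATA-type motif (GATAA, here on the other strand as TTATC) that begins 184 bases before the start, and an AP-1-type motif (TGANTCA) that begins 118 bases before it.
Slc10a2: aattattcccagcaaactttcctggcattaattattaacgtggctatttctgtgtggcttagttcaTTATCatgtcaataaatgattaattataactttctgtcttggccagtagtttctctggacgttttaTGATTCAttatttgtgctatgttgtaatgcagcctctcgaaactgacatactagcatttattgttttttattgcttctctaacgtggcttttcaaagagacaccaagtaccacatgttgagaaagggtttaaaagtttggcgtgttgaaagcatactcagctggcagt
Among 32851 RefSeq promoters of this length, 25.41% held GATAA and 7.81% held TGANTCA on either strand. A match is a description of the sequence and says nothing of binding in these mice.

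**Figure D1:**
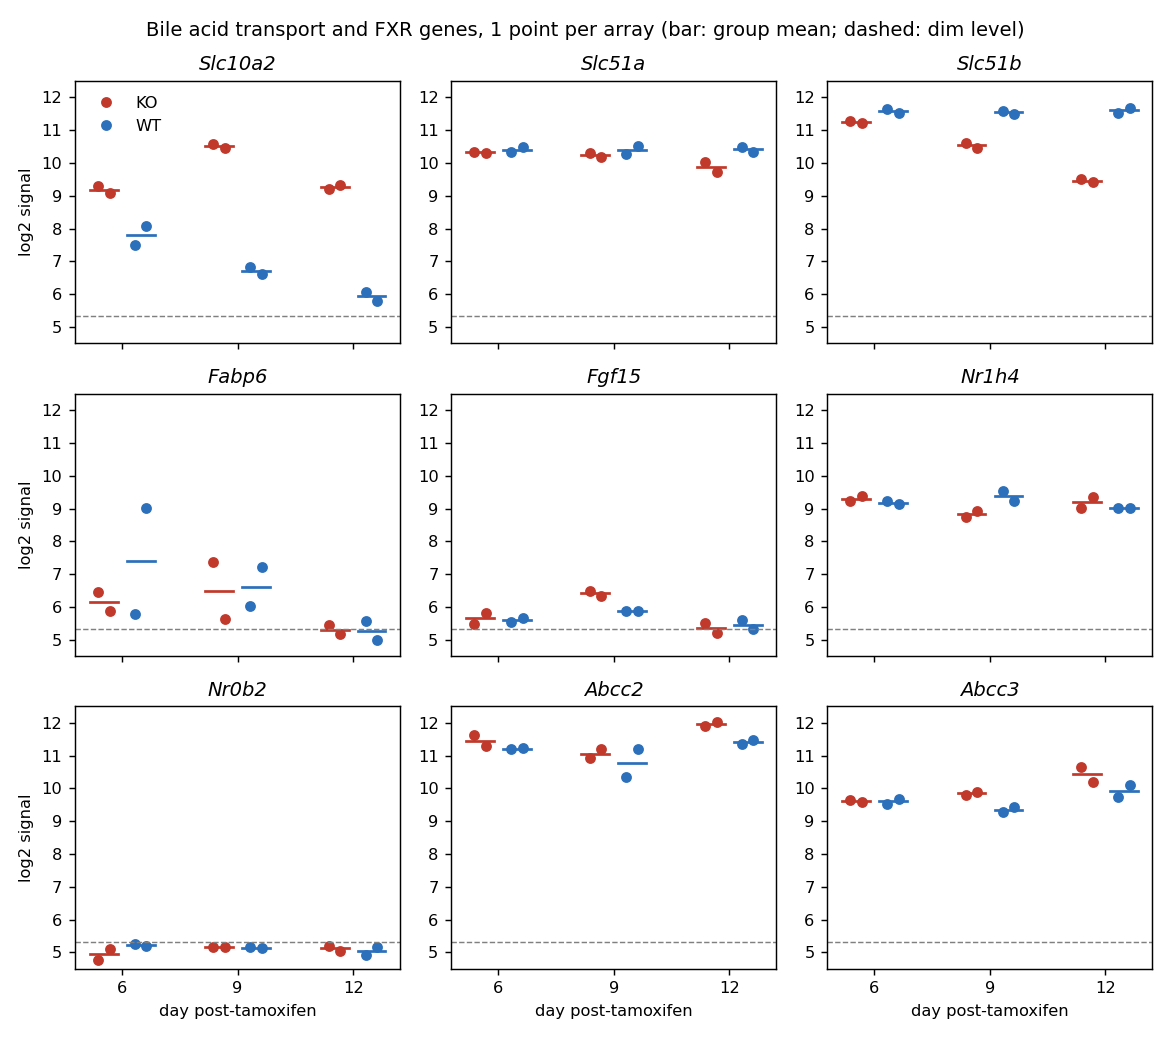
The log2 signal (vertical axis) of the 9 genes is plotted by day post-tamoxifen (horizontal axis), 1 point per array, with KO in red left of WT in blue; bars are group means and the dashed line is the dim level of 5.33. Slc10a2 in KO arrays lies above all WT arrays, Slc51b in KO arrays steps down over days, and Nr0b2 stays under the dim level on all 12 arrays.

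In KO mice Slc10a2 went up and then down. It rose by 1.32 ± 0.17 between days 6 and 9 (adjusted p = 0.000339, limma) and fell by 1.24 ± 0.17 between days 9 and 12 (adjusted p = 0.000806, limma). Day 12 differed from day 6 by 0.08, with a 95% interval from -0.29 to 0.45 (adjusted p = 0.813, limma). The difference between KO and WT widened by 2.39 ± 0.24 between days 6 and 9 (adjusted p = 0.000144, limma) and changed by -0.45 ± 0.24 between days 9 and 12 (adjusted p = 0.303, limma).

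In WT mice Slc10a2 drifted down over the same days, as the values above show: 7.51 and 8.08 at day 6, 6.82 and 6.62 at day 9, and 6.08 and 5.79 at day 12. No array of a later day reached the lowest array of an earlier day. Day 12 was below day 6 by 1.86 ± 0.17 on the log2 scale (3.63-fold, adjusted p = 0.00463, limma), and Slc10a2 was the only 1 of the 19938 genes called in this comparison, or 0.00502%. The single steps were not called: -1.07 ± 0.17 between days 6 and 9 (adjusted p = 0.0578, limma), where 0.0602% of genes were called, and -0.79 ± 0.17 between days 9 and 12 (adjusted p = 0.297, limma). The moderated F test over the 3 WT days gave an adjusted p of 0.0184 in limma and called 4 genes, or 0.0201%, namely Slc10a2, Dio1, Pim1 and Saa1, with Slc10a2 first by its statistic. Of the 9 genes here, it was the 1 called. Fabp6 differed by more between WT days 6 and 12, at -2.12 ± 0.84, and was not called (adjusted p = 0.563, limma). That was 2nd from the lowest difference among the 19938 genes, where Slc10a2 was 6th. The Fabp6 arrays were widely spread, at 5.79 and 9.02 in WT mice of day 6 and 5.57 and 4.99 at day 12.

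In WT arrays with low Xist, Slc10a2 stood at 6.82 and 6.62 on day 9, against 7.51 on day 6, a difference of -0.79 without WT replicate 2 of day 6 that was not called (adjusted p = 0.161, limma). In WT arrays with high Xist it stood at 6.08 and 5.79 on day 12, against 8.08 on day 6, a difference of -2.14 without WT replicate 1 of day 6 (adjusted p = 0.00114, limma). Each of these rests on 1 array of day 6. The call between days 6 and 12 was lost without WT replicate 2 of day 12 (-1.72, adjusted p = 0.0691, limma), with the replicate number as a block (adjusted p = 0.0532) and with the pan-epithelial mean in the fit (adjusted p = 0.0588). The F test's call was lost without WT replicate 2 of day 12 (adjusted p = 0.0853), without either KO array of day 9 (adjusted p = 0.0642 each) and with the pan-epithelial mean (adjusted p = 0.119, all limma).

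In order of its level, Slc10a2 was highest in KO mice of day 9, then in KO mice of day 12 and of day 6, then in WT mice of day 6, of day 9 and of day 12. Neighbours in this order that were not called apart were KO days 12 and 6, WT days 6 and 9, and WT days 9 and 12. KO of day 6 and WT of day 6 were called apart, as given above.

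**Figure D2:**
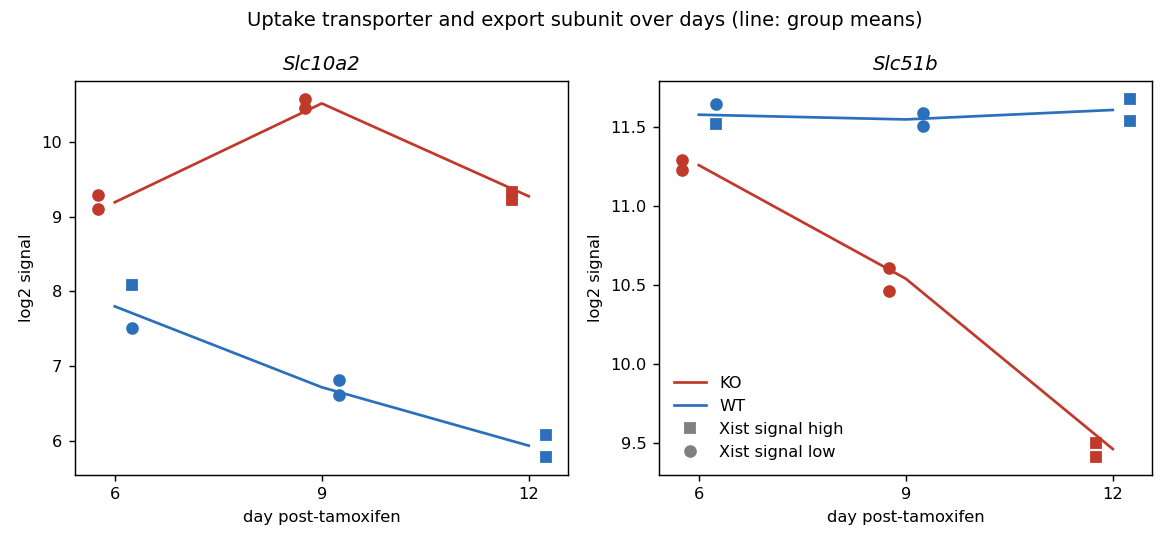
The log2 signal (vertical axis) of Slc10a2 (left) and Slc51b (right) is plotted against day post-tamoxifen (horizontal axis) for KO (red) and WT (blue), with lines through the group means and 1 marker per array, square where Xist was high and round where it was low. Slc10a2 in WT mice goes down at each day, and Slc51b goes down in KO mice while its WT arrays stay between 11.51 and 11.68.

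The genes most like Slc10a2 over the 12 arrays, by Pearson correlation of log2 signals, were Mif (0.973), Trmt10a (0.97), Vps37c (0.969), Thyn1 (0.966) and Lpcat4 (0.964). The 12 arrays share genotype and day, so these values describe a pattern that many genes can follow. Mif encodes a cytokine and has near-identical pseudogenes, so its signal may be shared with them. Lpcat4, an acyltransferase of phospholipid remodelling, had group means by day of 8.86, 9.46 and 9.12 in KO mice, against 7.92, 7.55 and 7.48 in WT mice. Over the 6 WT arrays alone the most like were Ccdc97 (0.997), Cyp51 (0.99), Tbx6 (0.99), Alkbh4 (0.989) and Fst (0.986), and with 6 points and so many genes such values arise easily. Cyp51, the lanosterol demethylase of cholesterol synthesis, averaged 9.50, 9.16 and 8.81 in WT mice at days 6, 9 and 12, and Tbx6 was below the dim level in all groups. The other 8 genes correlated with Slc10a2 between -0.659 (Slc51b) and 0.446 (Fgf15) over the 12 arrays. Over the 6 WT arrays alone they ranged from -0.414 (Abcc3) to 0.756 (Fabp6).

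Fabp6, the cytosolic carrier, varied widely between mice of the same group and was not called at any day. At day 6 its signal was 6.44 and 5.87 in KO mice, against 5.79 and 9.02 in WT mice. At day 9 it was 7.36 and 5.63 in KO mice, against 6.02 and 7.23 in WT mice. At day 12 it was 5.45 and 5.16 in KO mice, against 5.57 and 4.99 in WT mice, with both group means under the dim level. The groups overlapped at all 3 days, and WT replicate 2 of day 6 stood furthest from the rest.

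The dim level is 5.33, the 95th percentile of the mean signals of 1015 odorant receptor genes, most of which are silent outside the nose. Because it is drawn from other genes, it carries the limit on comparing levels between genes. It marks a weak signal and not an amount of RNA. The 2 WT mice of day 6 differed by 3.23, the 5th largest gap of that pair among 19938 genes, where the median gap was 0.113. The KO pair of day 9 ranked 8th and the WT pair of day 9 ranked 17th by the same measure. The differences between KO and WT had an SE of 0.84, and the 95% intervals were -3.08 to 0.60 at day 6, -1.97 to 1.71 at day 9 and -1.82 to 1.86 at day 12, with adjusted p of 0.661, 0.931 and 0.99 (limma). A change of several fold either way would not have been detectable for this gene.

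The Fabp6 promoter is shown because it holds the FXR-type motif. It lies at chr11:43601513-43601812 on the minus strand (GRCm38.p6, RefSeq). The motif searched was an inverted repeat of AGGTCA and TGACCT with 1 base between, on both strands and with up to 2 mismatches. Capitals mark 2 matches with 2 mismatches each, 222 and 142 bases before the start.
Fabp6: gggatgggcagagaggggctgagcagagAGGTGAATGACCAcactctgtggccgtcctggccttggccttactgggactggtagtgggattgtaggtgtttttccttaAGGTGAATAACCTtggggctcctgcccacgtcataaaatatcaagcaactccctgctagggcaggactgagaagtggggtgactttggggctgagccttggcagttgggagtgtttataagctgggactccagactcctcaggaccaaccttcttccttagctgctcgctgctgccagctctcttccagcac
Of the 32851 promoters, 1.14% held such a match, and of the 7 genes here with a promoter in the RefSeq table Fabp6 was the 1 that did. Inverted repeats further from the start were not searched.

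The subunits of the export heterodimer fell in KO mice, Slc51b earlier and by more. Slc51b, the β subunit, stood at 11.29 and 11.23 in KO mice against 11.65 and 11.52 in WT mice at day 6. It stood at 10.61 and 10.46 in KO mice against 11.59 and 11.51 in WT mice at day 9. It stood at 9.50 and 9.41 in KO mice against 11.54 and 11.68 in WT mice at day 12. The KO arrays were below the WT arrays at each day without overlap, and the gap grew from day to day. With 2 arrays in a group such a separation arises readily, and its share over all genes was not counted. At day 6 Nr0b2, under the dim level, was also separated, with KO lower, and Nr1h4 and Abcc2 with KO higher, none of them called. For Nr1h4 the nearest KO and WT arrays were both at 9.22 as rounded.

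For Slc51b the difference, KO minus WT, was -0.33 ± 0.10 at day 6 (adjusted p = 0.176, limma), which was not called. It was -1.01 ± 0.10 at day 9 (2.02-fold lower, adjusted p = 1.97e-05, limma) and -2.15 ± 0.10 at day 12 (4.45-fold lower, adjusted p = 4.89e-08, limma). The difference widened by 0.68 between days 6 and 9 (change of -0.68 ± 0.14, adjusted p = 0.00914, limma) and by a further 1.14 between days 9 and 12 (change of -1.14 ± 0.14, adjusted p = 0.00217, limma). In KO mice the gene fell by 0.72 and then by 1.08 on the log2 scale, and the first of these calls was lost with the pan-epithelial mean (adjusted p = 0.0687, limma). In WT mice the F test over days gave an adjusted p of 0.95, and the 6 arrays spanned 11.51 to 11.68. The calls at days 9 and 12 held under all 21 alternative settings listed in the methods. The enterocyte list mean given above was also low in KO arrays at days 9 and 12. Between those days in KO mice, 1 of its 18 genes rose, 6 fell and 11 were not called (median -0.14). Over all genes 22.9% were called in that step. The part of that list in the fall of Slc51b was not tested.

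Slc51a, the α subunit, overlapped between the genotypes at days 6 and 9, with KO arrays at 10.19 to 10.35 and WT arrays at 10.27 to 10.51. At day 12 its signal was 10.02 and 9.73 in KO mice, against 10.49 and 10.35 in WT mice, so that both KO arrays were lower. The difference was -0.55 ± 0.12 at day 12 (1.46-fold lower, adjusted p = 0.00558, limma), and this call was lost without WT replicate 1 of that day (-0.48, adjusted p = 0.0531, limma). At day 9 it was -0.14, with a 95% interval from -0.41 to 0.13. Averaged over days it was -0.26 ± 0.07 (adjusted p = 0.0148, limma), with the call lost without WT replicate 2 of day 9 (-0.22, adjusted p = 0.051).

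The Slc51b promoter, at chr9:65422724-65423023 on the minus strand (GRCm38.p6, RefSeq), is shown beside that of Slc10a2 because these transporters of one pathway moved in opposite directions. Capitals mark an AP-1-type motif 232 bases before the start and a single AGGTCA element, the half-site that nuclear receptors bind, 203 bases before it.
Slc51b: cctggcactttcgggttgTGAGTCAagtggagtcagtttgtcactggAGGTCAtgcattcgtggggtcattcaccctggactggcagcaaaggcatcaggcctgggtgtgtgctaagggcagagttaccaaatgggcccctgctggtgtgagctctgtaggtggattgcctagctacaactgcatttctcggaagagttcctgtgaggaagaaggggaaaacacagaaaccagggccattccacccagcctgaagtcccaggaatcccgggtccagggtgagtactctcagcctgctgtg
AGGTCA was present in 16.26% of the 32851 promoters. It was also found in those of Slc51a, Nr1h4 and Abcc2 (58, 214 and 49 bases before the start), and GATAA in those of Nr1h4 and Abcc2 (131 and 150 bases before the start), while none of the 4 motifs was found in the window of Nr0b2. The Nr1h4 window, at chr10:89506609-89506908 on the minus strand, lies inside the gene at 89454234-89533645. It belongs to an internal start, and the outer end of that gene was not searched.

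Nr1h4, which encodes FXR itself, was lower in KO mice at day 9 and not called at the other days. At day 9 its signal was 8.75 and 8.92 in KO mice, against 9.53 and 9.24 in WT mice, and the groups did not overlap. The difference was -0.55 ± 0.13 (1.47-fold lower, adjusted p = 0.00858, limma). At day 6 it was 0.11 (95% interval -0.18 to 0.40) and at day 12 it was 0.16 (-0.13 to 0.46). The day 9 call was lost without KO replicate 1 (-0.47, adjusted p = 0.0709), without WT replicate 1 (-0.41, adjusted p = 0.0889) and with the pan-epithelial mean (-0.32, adjusted p = 0.305, all limma).

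Of the targets of FXR that signal onward, Nr0b2 had a dim signal and Fgf15 a weak one. Nr0b2, which encodes SHP, lay between 4.78 and 5.25 on the 12 arrays, under the dim level on every one, so no fold is given, and its differences were not called at any day. Fgf15, the ileal hormone, lay between 5.19 and 6.48, above the dim level on 10 of 12 arrays. At day 9 it was 6.48 and 6.34 in KO mice, against 5.86 and 5.89 in WT mice, without overlap, and it overlapped at days 6 and 12.

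The Fgf15 difference at day 9 was 0.53 ± 0.14 (1.45-fold, adjusted p = 0.0142, limma). The call was lost without KO replicate 1 (0.46, adjusted p = 0.0963) or without either WT replicate of day 9 (0.52 and 0.55, adjusted p = 0.0735 and 0.0619), and with the pan-epithelial mean (0.26, adjusted p = 0.428, all limma). In KO mice Fgf15 rose by 0.76 ± 0.14 between days 6 and 9 (adjusted p = 0.00298, limma), a call lost with the pan-epithelial mean (0.41, adjusted p = 0.414), and fell by 1.06 ± 0.14 between days 9 and 12 (adjusted p = 0.000694, limma). Its mean was 5.35 at day 12, at the dim level.

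Of the ABC exporters, Abcc3 rose by small amounts in KO mice and Abcc2 was not called. At day 6 Abcc3, the basolateral pump, differed by 0.01 with a 95% interval from -0.33 to 0.35. It was 9.80 and 9.89 in KO mice against 9.27 and 9.42 in WT mice at day 9, and 10.66 and 10.21 in KO mice against 9.74 and 10.10 in WT mice at day 12, with no overlap at either day. The differences were 0.50 ± 0.15 at day 9 (1.41-fold, adjusted p = 0.0299, limma) and 0.51 ± 0.15 at day 12 (1.43-fold, adjusted p = 0.0279, limma). The day 9 call was lost without any 1 of the 4 arrays of that day (adjusted p from 0.0676 to 0.161), and the day 12 call without KO replicate 1 (0.29, adjusted p = 0.22) or WT replicate 1 (0.34, adjusted p = 0.233, all limma). With the replicate block the adjusted p was 0.0591 at day 9 and 0.0578 at day 12. Averaged over days the difference was 0.34 ± 0.09 (adjusted p = 0.0113, limma). With the pan-epithelial mean in the fit all 3 calls were lost (adjusted p = 0.366 at day 9, 0.137 at day 12 and 0.347 averaged, limma), and with the smooth muscle mean that of day 12 (adjusted p = 0.075).

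Abcc2, the apical pump, was not called at any day. At day 12 it was 11.91 and 12.01 in KO mice, against 11.35 and 11.49 in WT mice, without overlap, and the difference was 0.54 ± 0.22 (adjusted p = 0.0939, limma). At day 9 it was 10.92 and 11.19 in KO mice, against 10.36 and 11.19 in WT mice, and WT replicate 1 was the low array. Averaged over days the difference was 0.35 ± 0.12 with an adjusted p of 0.05, which did not pass (limma). It passed without WT replicate 2 of day 9 (0.49, adjusted p = 0.00146) and with the replicate block (adjusted p = 0.0126), among others, so this gene lies at the threshold. In KO mice it rose by 0.90 ± 0.22 between days 9 and 12 (adjusted p = 0.0135, limma), a call lost under 5 of 21 settings (adjusted p from 0.0657 to 0.0989), and in WT mice the same step was 0.64 ± 0.22 (adjusted p = 0.451).

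**Figure D3:**
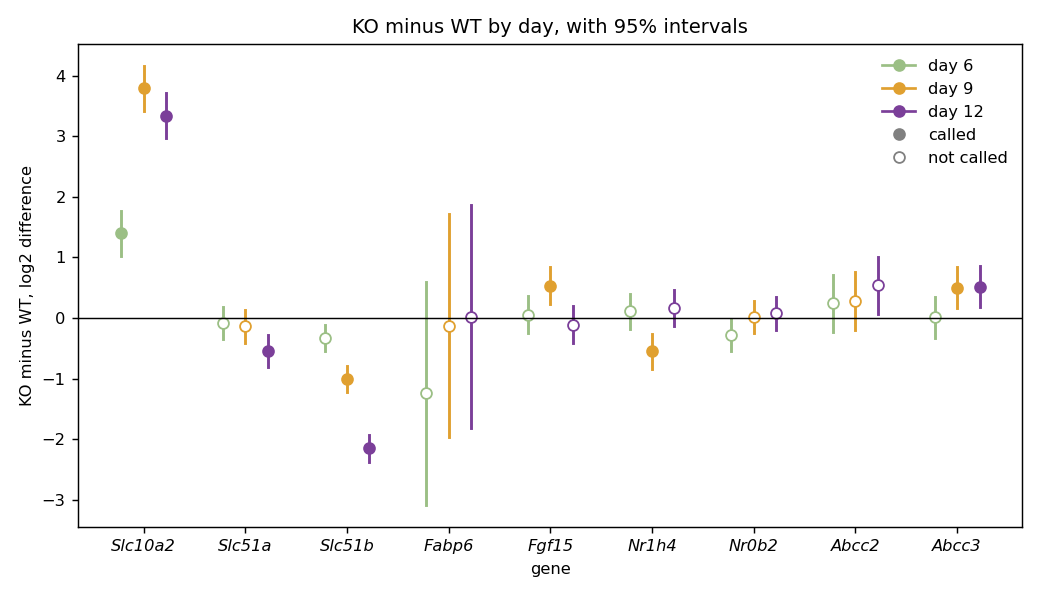
The log2 difference, KO minus WT (vertical axis), is plotted for each of the 9 genes (horizontal axis) at days 6, 9 and 12, with vertical lines for 95% intervals of the fit and filled points where the adjusted p was under 0.05. Slc10a2 stands at 1.40, 3.79 and 3.34, Slc51b at -0.33, -1.01 and -2.15, and the intervals of Fabp6 are the widest.

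As a group the 9 genes did not move one way. At day 6, 1 rose, none fell and 8 were not called, where 1.03% of all genes were called. At day 9, 3 rose (Slc10a2, Fgf15 and Abcc3) and 2 fell (Slc51b and Nr1h4), where 12.6% of all genes rose and 17.1% fell. At day 12, 2 rose (Slc10a2 and Abcc3) and 2 fell (Slc51a and Slc51b), where 13.7% of all genes rose and 13.7% fell. Averaged over days the same 4 genes were called, in the same directions, beside 15.7% of all genes that rose and 16.9% that fell. The median difference of the 9 genes was 0.01, 0.02 and 0.07 at days 6, 9 and 12, close to the 0.003, 0.025 and 0.024 of all genes.

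The difference between KO and WT itself changed over days in 3 of the 9 genes, by the interaction test in limma: Slc51b (adjusted p = 2.81e-05), Slc10a2 (adjusted p = 0.000151) and Nr1h4 (adjusted p = 0.0309). The test called 18.5% of all genes. Within KO mice the F test over days called 7 of the 9 genes, all but Fabp6 and Nr0b2, where 37.6% of all genes were called. Of the 21 alternative settings, 9 lost this call for Nr1h4 (adjusted p up to 0.603), 5 for Slc51a (up to 0.198), 5 for Abcc2 (up to 0.103) and 1 for Abcc3, the smooth muscle mean (0.187). Between days 6 and 9 in KO mice 2 rose (Slc10a2 and Fgf15) and 2 fell (Slc51b and Nr1h4), where 24.5% of all genes were called either way. Between days 9 and 12, 2 rose (Abcc2 and Abcc3) and 4 fell (Slc10a2, Slc51a, Slc51b and Fgf15), where 22.9% were called. The fall of Slc51a in that step, -0.38 (adjusted p = 0.045, limma), was lost under 12 settings, that of Nr1h4 between days 6 and 9 under 6, and the rise of Abcc3 between days 9 and 12 under 5. In KO mice 3 of the 15 smooth muscle genes rose between days 6 and 9 and 5 between days 9 and 12 (list medians 0.71 and 1.03), and 13 rose between days 6 and 12 (median 1.68). The KO and WT values enter several of these comparisons, so the counts are not separate evidence.

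Other genes of the pathway were followed in lists compiled from general knowledge. Among 16 other transporters of bile acids and organic anions, none was called at day 6, 1 rose and 4 fell at day 9, and 3 rose and 3 fell at day 12. Over all genes 12.6% rose and 17.1% fell at day 9, and 13.7% each way at day 12, so these counts lay near the background. Of the 3 that rose at day 12, Abcb11 and Slco1b2 had group means under the dim level (4.75 and 4.18 in KO mice, against 3.76 and 3.88 in WT mice). Abcc4, which encodes the basolateral pump MRP4, averaged 7.88 in KO mice against 6.76 in WT mice at day 9 (difference 1.11 ± 0.11, adjusted p = 2.7e-05, limma), and its difference was 1.43 ± 0.11 at day 12. Slco2b1, an organic anion uptake transporter, differed by -1.67 ± 0.10 at day 9 and -1.14 ± 0.10 at day 12, and Abcg2, the apical exporter BCRP, by -1.54 ± 0.15 and -1.52 ± 0.15. Slc10a1, the hepatic relative of Slc10a2, was under the dim level.

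Among 12 receptors and partners, 3 rose and 4 fell at day 9, and 2 rose and 5 fell at day 12. Over all genes 12.6% rose and 17.1% fell at day 9, and 13.7% went each way at day 12. Vdr, the vitamin D receptor, which also binds lithocholic acid, averaged 9.54 in KO mice against 11.87 in WT mice at day 9 and 8.80 against 11.67 at day 12, a difference of -2.87 ± 0.12 at day 12. Malrd1, known in mouse to raise the output of FGF15, differed by -0.84 ± 0.12 at day 6 (adjusted p = 0.011, limma), -2.01 ± 0.12 at day 9 and -1.72 ± 0.12 at day 12. Rxra, the partner of FXR in its heterodimer, differed by -0.38 ± 0.10 at day 9 (adjusted p = 0.0146) and -0.35 ± 0.10 at day 12 (adjusted p = 0.0237, limma). Fgfr4, the receptor of FGF15 in liver, rose by 0.94 ± 0.13 at day 9 and 1.80 ± 0.13 at day 12, while its partner Klb averaged 5.06 over the arrays, under the dim level.

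Of 17 measured transcription factors and RNA-binding proteins known to act on these genes, 2 rose and 8 fell at each of days 9 and 12, and none was called at day 6. The shares over all genes were 12.6% up and 17.1% down at day 9, and 13.7% each way at day 12. Nr5a2, which encodes LRH-1 and drives Slc10a2 in mouse, differed by -1.65 ± 0.18 at day 9 and averaged 7.15 in KO mice against 9.26 in WT mice at day 12. Gata4 averaged 9.26 in KO mice against 10.09 in WT mice at day 9 (difference -0.83 ± 0.15, adjusted p = 0.00187, limma) and differed by -0.78 ± 0.15 at day 12 (adjusted p = 0.00253, limma). Hnf4a differed by -0.41 ± 0.12 at day 9, Hnf4g by -1.10 ± 0.17 and Ppara by -1.41 ± 0.17, while Onecut2, a factor of the proximal gut, rose by 2.44 ± 0.26 at day 12.

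Of 10 other genes that FXR is known to induce in intestine or in other tissues 6 were measured, of which 1 rose and 1 fell at day 9, and 1 rose and 2 fell at day 12, beside the shares of all genes given above. Sqstm1 rose at both days (0.90 ± 0.10 and 1.21 ± 0.10), Osgin1 fell at day 9 (-0.97 ± 0.11), and Nos2 and Il18 fell at day 12 (-1.34 ± 0.43 and -0.52 ± 0.11). Among 19 genes of bile acid synthesis and conjugation, 2 rose and 9 fell at day 9, and 2 rose and 7 fell at day 12, beside the same shares. Cyp7a1, the rate-limiting enzyme in liver, averaged 3.49, under the dim level. Slc27a2, an acyl-CoA synthetase that acts on long-chain fatty acids and bile acid precursors, averaged 6.41 in KO mice against 9.58 in WT mice at day 9 and differed by -3.61 at day 12. At day 6, 1 gene of each of these last lists was called, Il18 at -0.60 ± 0.11 (adjusted p = 0.0342, limma) and Slc27a2 at -0.79 (adjusted p = 0.00968, limma).

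The list medians at days 9 and 12 stood beside 0.025 and 0.024 over all genes. They were 0.00 and -0.01 for the other transporters, 0.04 and -0.09 for the receptors and partners, and -0.39 and -0.29 for the factors and RNA-binding proteins. They were -0.08 and -0.11 for the genes induced through FXR and -0.30 and -0.18 for bile acid synthesis. All but the median of the receptors and partners at day 9 were below that of all genes.

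Genes known for a higher level in ileum did not follow Slc10a2. Of 11 such genes other than the 9, 1 rose (Hoxb9, 0.36 ± 0.10) and 7 fell at day 9, and none rose and 7 fell at day 12, with list medians of -0.90 and -1.31. The background for this list and the next was 12.6% of all genes up and 17.1% down at day 9, and 13.7% each way at day 12. At day 6 Cubn alone among them fell (-1.88 ± 0.36, adjusted p = 0.0433, limma). Cubn, the receptor cubilin, averaged 8.31 in KO mice against 11.55 in WT mice at day 12, and Nts, which encodes neurotensin, averaged 5.39 in KO mice against 8.03 in WT mice at that day. Of 14 genes of the proximal gut, 4 rose and 3 fell at day 9, and 4 rose and 5 fell at day 12, with the iron exporter Slc40a1 up by 3.76 ± 0.15 and lactase (Lct) at 6.38 in KO mice against 11.96 in WT mice at day 9. Gata4 and Onecut2 are in this list and in that of the factors, and Lct is also in the enterocyte list. The counts of these lists are therefore not separate.

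Markers of other cells were read beside these values. Over all genes 1.03% were called at day 6, 12.6% rose and 17.1% fell at day 9, and 13.7% went each way at day 12. Of 14 pan-epithelial genes 4 rose and 3 fell at day 9 and 3 rose and 3 fell at day 12, and of 14 immune genes 2 rose and 4 fell and then 0 rose and 7 fell. Of 15 smooth muscle genes, 2 fell at day 6, none was called at day 9 and 1 rose at day 12. Of 9 colon genes none was called in limma at any day, of 8 genes of exocrine pancreas 1 rose at day 12, and of 15 hepatocyte genes 1 rose and 3 fell at day 9, 2 rose and 3 fell at day 12, 5 were above the dim level and Alb, at 4.96, was not. The list means of hepatocyte, pancreas and colon genes stayed between -0.30 and 0.19 on all arrays, relative to the WT mean. Some hepatocyte genes, Cyp7a1 and Slc10a1 among them, are also in the lists above. The part of these lists in the differences of the 9 genes was not tested beyond the fits with the smooth muscle and pan-epithelial means.

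**Figure D4:**
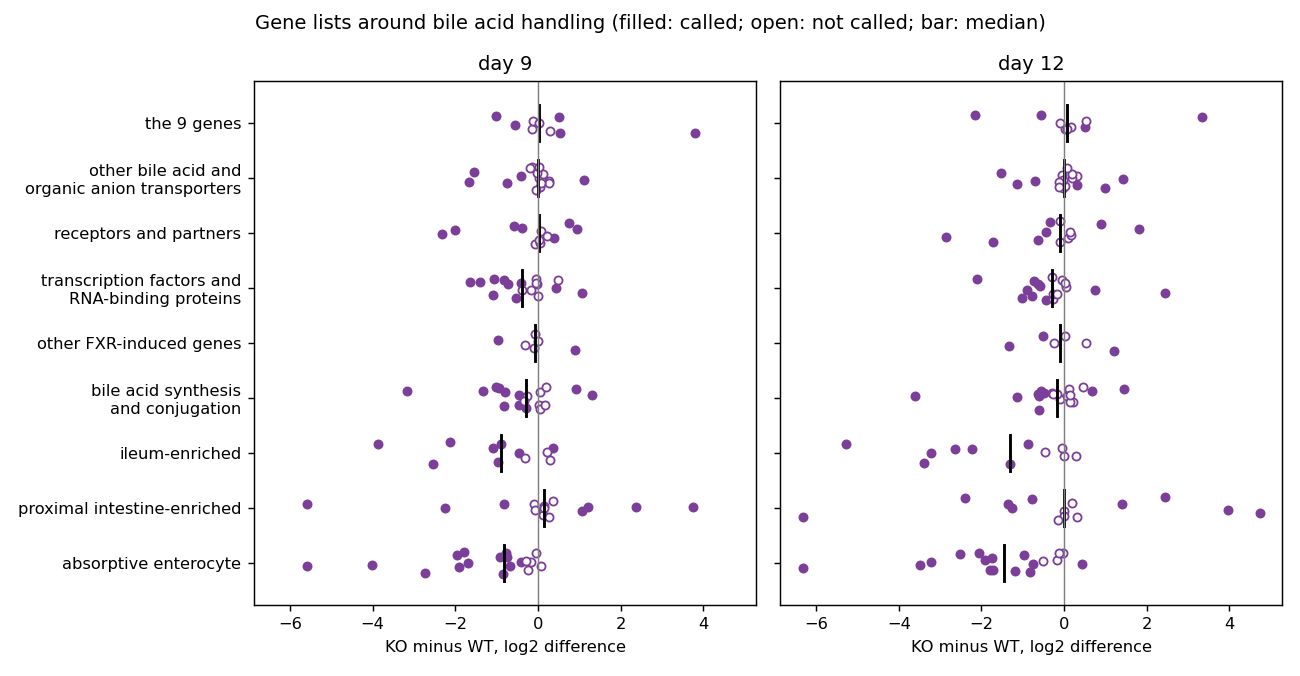
The log2 difference, KO minus WT (horizontal axis), is plotted for each gene of 9 lists (vertical axis) at day 9 (left) and day 12 (right), 1 point per gene, filled where the adjusted p was under 0.05, with a black bar at the median of each list. The 9 genes lie on both sides of 0, with Slc10a2 the point furthest right among them, while 7 of the 11 ileum genes and 13 of the 18 enterocyte genes lie to the left as filled points at each day. Over all genes 17.1% fell at day 9 and 13.7% at day 12.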

How the data were processed

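RNA of whole jejunum from 12 mice was read on Affymetrix Mouse Gene 1.0 ST arrays, 1 per mouse. The authors' deposited values are log2 signals for 35556 probe sets, taken here unchanged (2.29 to 14.13, array medians 5.95 to 6.02). Of tools, limma and R 3.5 appear in the submitters' processing notes. How background was corrected and arrays were normalised is not stated there. Of the probe sets, 21789 carried 1 symbol, 1621 several and 12146 none in the platform annotation of this work, which gave 19938 genes by the highest mean.

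A mean per group was fitted over all 12 arrays in limma 3.58.1 (R 4.3.3) with moderated variances (6 residual degrees of freedom, 5.23 from the prior), two-sided, with Benjamini-Hochberg adjustment over 19938 genes. All 6 groups share 1 estimate of the spread, because each holds 2 mice. The interaction and the changes over days were moderated F tests. No filter on low signal was applied. The number of arrays limits the precision. Data were simulated for KO against WT at day 9 (19938 genes). The calls recovered 56.7% of 201 simulated 1.5-fold changes, 89.6% of 201 of 2-fold and 100% of 198 of 4-fold ones. In the measured data 5917 genes were called at day 9. Recovery with so many changes was not tested. The labels name 2 mice per group but no litter or array batch.

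The members, the lists and the rule for named genes (all 9 genes, up to 3 called genes with the largest differences per list and day, Gata4, Hnf4a, Nr5a2, Rxra and 1 gene not reported here, and the 5 genes most like Slc10a2) were chosen with earlier results of these data known. The rise and the WT drift of Slc10a2 were among those results and are no independent support. Klb, Slc10a1, Cyp7a1, Fgfr1op, Hoxb9, Nts, Alb, Abcb11, Slco1b2 and the sex-linked genes were named after their values were seen. The alternatives were median centring, quantile normalisation, a filter at the dim level, trend and robust moderation, array weights, leaving out each array, the replicate number as a block, all probe sets, and the smooth muscle or pan-epithelial mean as a covariate. Promoters came from RefSeq (GRCm38.p6) for 7 of the 9 genes.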

Additional observations from a re-analysis of the deposited data

Results flagged for a closer look

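The difference between KO and WT changed over days in 3 of the 9 genes by the genotype by day interaction test in limma. For Slc10a2 the adjusted p was 0.000151, with KO minus WT at 1.40, 3.79 and 3.34 on the log2 scale at days 6, 9 and 12, and KO was higher in both mice at each day. For Slc51b it was 2.81e-05, with differences of -0.33, -1.01 and -2.15, and KO was lower in both mice at each day. For Nr1h4 it was 0.0309, with differences of 0.11, -0.55 and 0.16. The Slc10a2 and Slc51b calls held under all 21 alternative settings, with adjusted p up to 0.00295 and 0.00091. The Nr1h4 call was lost under 11 of them, with adjusted p from 0.0513 to 0.138.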

How the results depend on the processing

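Of 588 repeats of 28 called differences of the 9 genes under another setting, 527 kept the call, 61 lost it and none changed sign. The F tests are not in this count, and their lost calls are given above. Changes of the difference between KO and WT from one day to another were not repeated. Among repeated differences that were not called, 13 repeats gained a call and 27 changed sign. Of the steps between days that were not called, only those of Slc10a2 were repeated. The cause was not tested in any of these. The count of genes called at day 6, 205 as reported, was 415 with array weights, 101 with the replicate block and 15 with the smooth muscle mean, and 21 to 291 when 1 array was left out. At day 9 the 5917 became 2512 with the pan-epithelial mean and 3646 to 6542 with 1 array left out. The 6493 averaged over days became 3148 with the pan-epithelial mean. The interaction's 3685 became 1653 with the smooth muscle mean and 2191 to 4667 with 1 array left out. The 7487 for days in KO became 4931 with the smooth muscle and 4285 with the pan-epithelial mean. The 4 for days in WT became 10 with array weights, 1 with centring, quantile normalisation, the filter, all probe sets or the smooth muscle mean, and 0 with the pan-epithelial mean (limma, 2003 genes at an unadjusted p under 0.05), and 0 to 8 with 1 array left out. Signs that turned, none of them called on either side, were at day 6 with the smooth muscle mean Slc51a (0.109) and Nr1h4 (-0.2), with the pan-epithelial mean Fgf15 (-0.089) and Abcc3 (-0.057), and with quantile normalisation Abcc3 (-0.02). At day 9 they were Fabp6 with the pan-epithelial mean (0.052) and Nr0b2 with centring (-0.005), at day 12 Fabp6 with the smooth muscle mean (-0.074), and over days Fgf15 (-0.034) and Nr1h4 (0.074) with the pan-epithelial mean. With 1 array left out, Fabp6 ranged from -2.862 to 0.373 at day 6, -0.988 to 0.734 at day 9, -0.265 to 0.311 at day 12 and -0.989 to 0.09 over days. Fgf15 ranged from -0.102 to 0.207 at day 6 and -0.267 to 0.051 at day 12, and Nr0b2 from -0.005 to 0.045 at day 9 and -0.056 to 0.204 at day 12. Abcc3 ranged from -0.069 to 0.093 at day 6, Abcc2 from -0.134 to 0.693 at day 9, Nr1h4 from -0.013 to 0.342 at day 12, and Slc10a2 between KO days 6 and 12 from -0.012 to 0.173. Same-numbered arrays of KO and WT share only a number: their deviations correlated at 0.18, -0.09 and 0.113 at days 6, 9 and 12. With that number as a replicate block, Abcc2 at day 12 passed (adjusted p = 0.0269) and Fgf15 gained an interaction call (0.033). Signals near the dim level limit Fgf15, and Nr0b2 was removed by the filter.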

Other observations

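Genes of B cells and lymphoid follicles, chosen after their values were seen, were high in the mice where Fabp6 stood highest but not in those alone. Ms4a1, which encodes CD20, was at 7.74 in WT replicate 2 of day 6 and at 6.52 in KO replicate 1 of day 9, where Fabp6 was at 9.02 and 7.36. It was also at 7.15 in WT replicate 2 of day 12 and at 6.01 in KO replicate 2 of day 6, where Fabp6 was at 4.99 and 5.87. In WT replicate 2 of day 9 Ms4a1 was at 3.80 while Fabp6 was at 7.23. Cr2 was at 6.10, 5.57 and 6.49 in WT replicate 2 of day 6, KO replicate 1 of day 9 and WT replicate 2 of day 12, and at 4.06 to 4.66 in the other 9 arrays. H2-Ob was at 7.38, 6.75 and 6.97 in the same 3 arrays and at 5.01 to 6.14 in the other 9. Cxcl13 was at 9.84, 9.22 and 9.88 in those 3 arrays. It was highest in the 2 KO arrays of day 12, at 10.09 and 10.11, where Fabp6 was at 5.45 and 5.16. In these 2 arrays Ms4a1 was at 3.79 and 3.66. No relation between Fabp6 and these genes was tested.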
